A study of Mus musculus with 18 samples.

Results

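The 9 C-type lectin receptors of myeloid cells, Clec7a, Clec4d, Clec4e, Clec4n, Clec5a, Clec4a2, Clec12a, Clec4a1 and Clec4a3, were followed in RNA of mouse spinal cord microglia. They were taken from the deposited count table as the rows whose Ensembl ID carries one of these symbols in the GENCODE M21 annotation, which gave 9 of the 39017 genes in the table. All 9 passed a filter on low counts that left 16740 genes for testing. Clec4d, Clec4e and Clec4n passed it through the libraries of diseased mice, since the healthy libraries held 0 to 10 counts of each and the filter needs 6 libraries at its minimum. Clec12a reached that minimum in 5 healthy libraries and so passed through the diseased mice too. None of these 4 would have entered the test on its healthy libraries alone, so their calls against healthy libraries, and counts that hold them, are a description.

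Microglia are the macrophages that reside in brain and spinal cord. The 18 libraries came from female mice labelled WT of the cross Tmem119-Cre:RiboTag, in which Cre made under the microglial gene Tmem119 switches on a tagged ribosomal protein. Healthy mice with control treatment gave 6 libraries (replicates 3, 4, 11, 12, 19 and 20), mice with EAE and control treatment gave 6 (1, 2, 9, 10, 17 and 18), and mice with EAE treated with metformin gave 6 (5, 6, 13, 14, 21 and 22). EAE, experimental autoimmune encephalomyelitis, is an immune-mediated inflammation of the spinal cord used as a model of multiple sclerosis, and metformin is a drug against type 2 diabetes that activates the kinase AMPK. The labels give no dose, duration, age or disease stage, name the material as total RNA and describe no pull-down of tagged ribosomes. They do not say that replicates were separate animals, so p-values measure the spread between these libraries. In such bulk RNA, fewer cells of a type and less RNA per cell cannot be told apart.

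C-type lectin receptors are membrane proteins that bind sugars, lipids and molecules of damaged cells through a shared lectin fold. Clec7a (Dectin-1) binds fungal beta-glucans and signals through a tyrosine motif in its own tail to the kinase Syk and the adaptor CARD9. Clec4n (Dectin-2), Clec4e (Mincle) and Clec4d (MCL) reach the same kinase through the Fc receptor gamma chain, the product of Fcer1g, and Clec5a (MDL-1) does so through DAP12, the product of Tyrobp. Clec4a2 (DCIR1) and Clec12a (MICL) carry inhibitory tyrosine motifs that recruit the phosphatases encoded by Ptpn6 and Ptpn11. Clec4a1 and Clec4a3 are further members of the DCIR family. Clec7a is widely used as a marker of microglia responding to damage or disease.

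Library totals ran from 46.2 to 58.3 M counts (M, mega). The summed level of 10 microglia markers was 12033 to 13233 CPM (counts per M of library size, with library sizes scaled by the TMM method) in healthy and 3515 to 5796 CPM in control EAE libraries. Metformin EAE replicate 22 stood apart from its group. It correlated more closely with the mean of the healthy libraries (Pearson r of log2 CPM over all tested genes, 0.982) than with the mean of the other metformin libraries (0.95) or of control EAE libraries (0.923), while the other 5 metformin libraries reached 0.986 to 0.991 with their own group. Its microglia marker sum was 12632 CPM, against 6215 to 9268 CPM in the other 5. Metformin EAE replicate 13 was about as close to the control EAE mean (0.9869) as to its own group (0.9864). Fitted changes of the 9 receptors in comparisons with metformin are therefore given with and without the library labelled metformin EAE 22, as are the counts of gene lists. Low counts were mostly even numbers (69.8 to 79.0% of counts from 1 to 20 in a library, against 49.3 to 51.9% of counts over 1000), so counting intervals quoted for low genes are too narrow.

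All 9 genes lie on chromosome 6 (mm10, the GRCm38 assembly). Clec4a1, Clec4a3, Clec4a2, Clec4n, Clec4d and Clec4e form a row in which neighbours among the 9 lie 0.007 to 0.137 Mb apart, from position 122921848 to 123289870. Clec12a (129342691 to 129365303, plus strand) and Clec7a (129461591 to 129472779, minus strand) lie 6.05 Mb further on and 0.096 Mb from each other, and Clec5a (40574894 to 40585821, minus strand) lies 82.3 Mb before the row. Exons of the 9 overlapped no exon of another gene. GENCODE M21 lists Clec7a as a polymorphic pseudogene and the other 8 as protein-coding. Of the 50-base words of Clec4a2 transcripts, 6.83% also occur in transcripts of other genes, among them the neighbouring family members Clec4a4 and Clec4b1, so a small part of its reads could be split. Those neighbours were themselves near 0 (at most 0.0827 CPM for Clec4a4 and 0.00757 CPM for Clec4b1 in a group mean). For Clec12a and Clec4n the shared words were 0.46% and 0.69%, and for the other 6 there were none.

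The start-site regions of the 4 most induced genes with an entry and of Clec5a, an activating receptor with the opposite course, are printed here so that the sequence around each start can be read beside the values. They cover 250 bases before to 50 bases after the start, from RefSeq on GRCm38.p6, printed 5′ to 3′ along the gene, and capitals mark GAGGAA or its reverse complement TTCCTC, the core letters bound by the myeloid factor PU.1. The windows are chr6:129472730-129473029 on the minus strand, chr6:123261857-123262156 on the plus strand, chr6:123289822-123290121 on the minus strand, chr6:129349994-129350293 on the plus strand and chr6:40585756-40586055 on the minus strand.
Clec7a: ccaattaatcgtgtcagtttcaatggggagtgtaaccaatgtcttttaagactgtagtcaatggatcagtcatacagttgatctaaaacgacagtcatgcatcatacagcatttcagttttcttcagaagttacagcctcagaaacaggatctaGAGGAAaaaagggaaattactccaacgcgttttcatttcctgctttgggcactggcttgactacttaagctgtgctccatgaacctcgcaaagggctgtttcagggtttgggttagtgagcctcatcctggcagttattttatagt
Clec4d: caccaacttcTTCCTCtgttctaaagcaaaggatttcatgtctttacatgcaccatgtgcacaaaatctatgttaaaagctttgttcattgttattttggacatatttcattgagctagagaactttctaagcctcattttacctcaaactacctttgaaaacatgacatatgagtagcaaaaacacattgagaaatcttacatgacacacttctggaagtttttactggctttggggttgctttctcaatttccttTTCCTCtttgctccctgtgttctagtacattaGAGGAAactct
Clec4e: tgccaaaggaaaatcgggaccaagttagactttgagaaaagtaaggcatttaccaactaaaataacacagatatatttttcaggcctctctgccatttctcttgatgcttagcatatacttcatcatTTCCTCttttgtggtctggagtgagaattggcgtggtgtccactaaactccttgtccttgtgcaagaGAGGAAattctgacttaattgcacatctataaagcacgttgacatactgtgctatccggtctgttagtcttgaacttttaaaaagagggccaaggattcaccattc
Clec12a: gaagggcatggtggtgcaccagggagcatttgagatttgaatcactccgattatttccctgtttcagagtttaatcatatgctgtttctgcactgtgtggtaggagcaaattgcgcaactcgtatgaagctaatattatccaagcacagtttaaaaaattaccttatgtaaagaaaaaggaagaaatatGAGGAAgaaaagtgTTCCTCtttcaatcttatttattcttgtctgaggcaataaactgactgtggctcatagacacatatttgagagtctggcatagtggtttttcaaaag
Clec5a: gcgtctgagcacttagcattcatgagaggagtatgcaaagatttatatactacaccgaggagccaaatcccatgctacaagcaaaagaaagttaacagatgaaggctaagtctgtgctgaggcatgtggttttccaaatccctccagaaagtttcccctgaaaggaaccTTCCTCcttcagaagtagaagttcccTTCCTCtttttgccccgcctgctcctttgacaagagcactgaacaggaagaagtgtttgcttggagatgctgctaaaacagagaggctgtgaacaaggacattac
RefSeq windows were found for 8 of the 9 genes, all but Clec4n. Clec7a and Clec4a3 had 2 windows each, and a gene was counted where any of its windows held the letters. GAGGAA on either strand occurred in 7 of the 8 genes (Clec4a2 was the exception), and in 28.3% of all 32851 single windows of the same length. In the Clec4d window it occurred 3 times, with first bases at positions -240, 8 and 40, where 1 is the first base of the transcript, in the Clec4e, Clec12a and Clec5a windows and that of Clec4a1 2 times each, and in a window of Clec7a and of Clec4a3 once. The C/EBP letters TTGCNNAA were found in Clec4e and Clec12a (10.8% of all windows), the AP-1 letters TGANTCA in Clec4a2 and Clec12a (7.81%), the NF-kB letters (GGGA, any 4 bases, then CC) in Clec4a1 alone (20.7%) and the E-box CACGTG in none of the 8 (7.15%), each searched on both strands. These matches describe letters only.

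In control EAE against healthy libraries, 6 receptors rose and 2 fell, with 4 of the 6 among those that entered through the EAE libraries. Clec7a went from a mean of 76.5 to 828.7 CPM, the 3 receptors of the Fc receptor gamma chain and the inhibitory Clec12a from below 0.3 CPM to between 2.01 and 13.5 CPM, and Clec4a1 from 2.49 to 3.94 CPM. Clec5a and Clec4a2 fell. The 8 of 9 called stand beside 62.4% of all tested genes called in either direction, 31.7% higher and 30.7% lower (edgeR quasi-likelihood test, Benjamini-Hochberg adjusted p under 0.05 over 16740 genes). The median log2 change was 3.44 over the 9 receptors and -0.0029 over all tested genes. For 7 receptors, 5 higher and 2 lower, no control EAE library overlapped any healthy library, which held for 39.4% of all tested genes (20.1% higher, 19.3% lower). Fitted without the metformin library described above, the counts were again 6 higher and 2 lower, beside 63.6% of genes (32.3% higher, 31.3% lower).

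Clec7a (ENSMUSG00000079293) was the most abundant of the receptors that rose. Its level in healthy libraries was 46.0 CPM at the lowest, 73.0 at the median and 109.8 at the highest, and in control EAE libraries 627, 893 and 975 CPM. The 2 ranges lay far apart, with the lowest EAE library above every healthy one. The log2 change was 3.44 ± 0.42 (SE, n = 6 and 6, edgeR adjusted p = 2.8e-06).

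The 3 receptors coupled to the Fc receptor gamma chain were nearly unread in healthy libraries. Clec4d (ENSMUSG00000030144), which pairs with Mincle, had 0, 0, 2, 4, 4 and 4 counts in the 6 healthy libraries (0.0392 ± 0.0334 CPM, SD) and 302 to 717 counts in control EAE libraries (lowest 7.35, median 11.6, highest 16.8 CPM). Clec4e (ENSMUSG00000030142), a receptor for mycobacterial cord factor and for a protein released by dead cells, had 0 to 2 counts in healthy and 56 to 165 counts in control EAE libraries (1.27, 1.99 and 2.96 CPM). Clec4n (ENSMUSG00000023349), a receptor for fungal mannans, had 0 to 10 counts in healthy and 169 to 471 counts in control EAE libraries (3.88, 4.55 and 8.45 CPM). For all 3, every control EAE library was above every healthy library. Summed over the 6 libraries of a group and set against library size, Clec4d was 292 times its healthy level (exact 95% interval 174 to 535, counting error only), Clec4e 121 times (55.1 to 330) and Clec4n 123 times (75.2 to 215). Of the 16 healthy counts of Clec4n, 10 came from replicate 12, and without that library the fold was 273 (125 to 745) and the fitted log2 change 7.91. These intervals follow from the handful of healthy counts, 14, 6 and 16 in all, so the order of the 3 folds is not resolved. The fitted log2 changes were 8.11 ± 0.87 for Clec4d (edgeR adjusted p = 8.59e-07), 6.70 ± 0.67 for Clec4e (2.17e-07) and 6.84 ± 0.78 for Clec4n (1.22e-06), given as a description of genes that entered the test through the EAE libraries. With no filter on low counts, where entry did not depend on EAE libraries, the edgeR adjusted p values were 3.102e-06 for Clec4d, 7.404e-08 for Clec4e and 4.33e-06 for Clec4n.

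Clec5a (ENSMUSG00000029915), the receptor coupled to DAP12, went the other way. Healthy libraries lay at 99.3, 118 and 129 CPM (lowest, median, highest) and control EAE libraries at 29.0, 59.7 and 78.4 CPM. No control EAE library reached the lowest healthy one. The log2 change was -1.02 ± 0.18 (edgeR adjusted p = 6.73e-05).

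The inhibitory receptors moved in opposite directions. Clec12a (ENSMUSG00000053063), a receptor for uric acid crystals, had 2 to 27 counts in healthy libraries (0.0317, 0.298 and 0.479 CPM) and 459 to 813 counts in control EAE libraries (10.7, 13.6 and 16.4 CPM). Clec4a2 (ENSMUSG00000030148) was at 17.2, 18.7 and 21.4 CPM in healthy and at 5.47, 5.85 and 7.46 CPM in control EAE libraries. In both genes the groups were fully separate, Clec12a with every EAE library higher and Clec4a2 with every EAE library lower. The log2 changes were 5.56 ± 0.68 for Clec12a (edgeR adjusted p = 2.99e-06) and -1.59 ± 0.22 for Clec4a2 (4.77e-06). With no filter on low counts the edgeR adjusted p of Clec12a was 1.06e-05. From summed counts, Clec12a was 47.9 times its healthy level (39.2 to 59.1).

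The other DCIR family members changed little. Clec4a1 (ENSMUSG00000049037) was at 1.87, 2.55 and 3.06 CPM in healthy and at 2.37, 3.73 and 5.62 CPM in control EAE libraries, with overlapping ranges. Its log2 change was 0.66 ± 0.19 (edgeR adjusted p = 0.00598), and 0.25 ± 0.21 (0.307) when libraries were scaled by their totals alone. Clec4a3 (ENSMUSG00000043832) was at 23.2, 27.4 and 33.0 CPM in healthy and at 21.8, 23.8 and 25.3 CPM in control EAE libraries, and its log2 change of -0.24 ± 0.12 did not pass (0.0963). With library totals alone Clec4a3 was at -0.66 ± 0.15 (0.000697). That scaling lowered the median change of all tested genes to -0.42, and relative to that median the 2 genes stood at 0.67 and -0.24, as they do with TMM scaling.

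**Figure D1:**
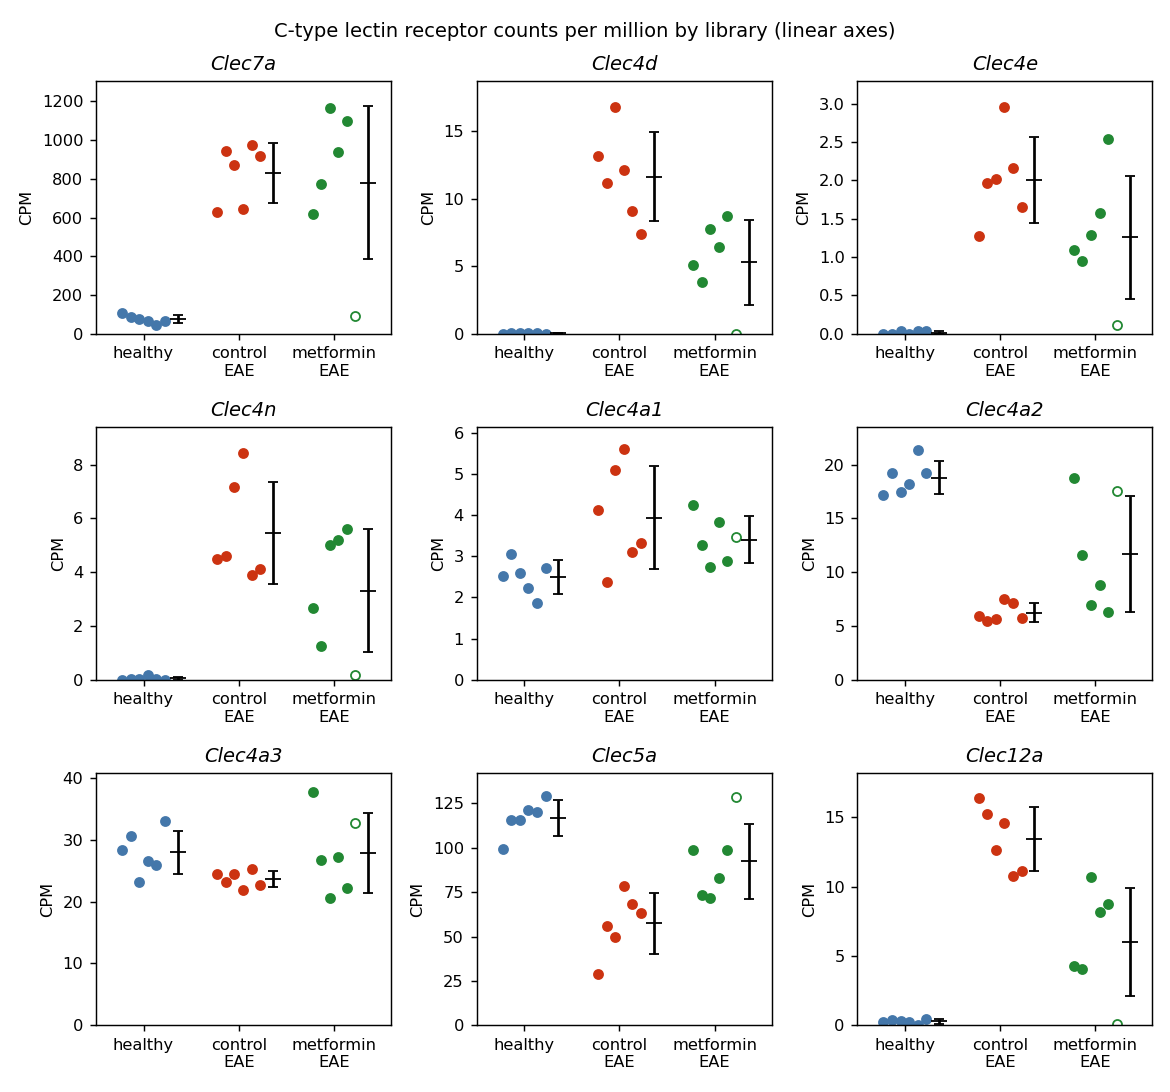
Level in CPM (linear axes from 0) of each receptor in every library, with healthy libraries in blue, control EAE in red and metformin EAE in green; the open circle is metformin EAE 22, and the dash and bar give the mean and SD of 6 libraries. In the Clec7a panel the control EAE libraries lie at 627 to 975 CPM and healthy libraries at 46.0 to 110 CPM, while the Clec5a and Clec4a2 panels have the healthy libraries on top.

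Markers of other cells rose in the same comparison. Of 10 monocyte-derived cell markers, 7 were tested and 5 were higher (31.7% of all tested genes were), and their summed level went from 4.67 to 13.1 CPM in healthy to 275 to 551 CPM in control EAE libraries. Most of that sum was Fn1 (359 CPM on average in control EAE). The defining monocyte marker Ly6c2 was at 0 CPM in healthy and 0.298 CPM in control EAE libraries on average, and Ccr2 was at 1.16 and 0.846 CPM. Border macrophage markers were higher in 4 of 5 tested genes, with sums of 0.871 to 4.75 and 54.1 to 108 CPM. Most of the control EAE sum was Ms4a7 (56.2 CPM on average), followed by Folr2 (7.66 CPM), and Pf4 and Clec10a were listed at 0 throughout. Neutrophil markers (2 of 2 tested higher) summed to at most 0.402 CPM in healthy and 2.88 to 8.62 CPM in control EAE libraries with Ly6g at 0 throughout, and T cell markers (4 of 4 higher) to at most 0.344 CPM and 1.60 to 6.32 CPM with Trac at 0 throughout. The counting annotation is not given, so genes at 0 in every library may be absent or may not have been counted. In healthy libraries S100a8 and Mmp8 were at 0.0117 and 0.0166 CPM on average, and Cd3e, Cd3g, Lat and Cd4 at 0.0059 to 0.125 CPM. None of these genes would have entered the test on its healthy libraries alone, so their counts are a description. The same holds for the monocyte-derived cell marker F10 (0.00574 CPM) and the border macrophage marker F13a1 (0.157 CPM). Dendritic cell markers (2 of 6 tested higher, 1 lower) summed to 142 to 171 and 211 to 298 CPM. Nearly all of that sum was Snx22 (145 and 231 CPM on average), while Flt3, the growth factor receptor of dendritic cells, went from 2.57 to 0.489 CPM. Of 10 microglia markers 9 fell, and of 12 tested markers of neurons, oligodendrocytes and astrocytes 8 fell and 2 rose (sums of 3765 to 4284 and 3060 to 3797 CPM). Of all tested genes 30.7% fell. The part of the cells behind these markers in the receptor changes was not tested.

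The order of the receptors, set per kilobase of merged exon length so that genes can be compared, changed with the disease. In healthy libraries Clec5a (median 30.7 CPM per kb), Clec7a (27.7) and Clec4a3 (20.7) led with overlapping ranges. Clec4a2 (6.40) and Clec4a1 (1.64) followed, each separate from its neighbours, and the last 4, Clec12a, Clec4d, Clec4n and Clec4e, were at or under 0.0540 with ranges that overlap from one to the next. In control EAE libraries Clec7a stood alone at 338 CPM per kb, ahead of Clec4a3 (17.9), Clec5a (15.6), Clec4d (7.28), Clec4n (3.21), Clec12a (2.46), Clec4a1 (2.40) and Clec4a2 (1.998), a run in which each overlapped the next, and Clec4e (0.401) came last and separate. In control EAE libraries Clec4d was thus above Clec4a2, the inhibitory receptor that had been well above it in healthy libraries.

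Clec7a alone made up 32.3 ± 7.07% (SD, n = 6) of the summed level per kb of the 9 receptors in healthy libraries and 85.6 ± 3.03% in control EAE libraries. Clec5a went from 34.6 ± 4.83% to 4.13 ± 1.40%, Clec4a3 from 23.8 ± 2.23% to 4.98 ± 0.859% and Clec4a2 from 7.32 ± 1.15% to 0.5996 ± 0.149%. Clec4a3 thus took a smaller share although its own levels overlapped between the groups.

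**Figure D2:**
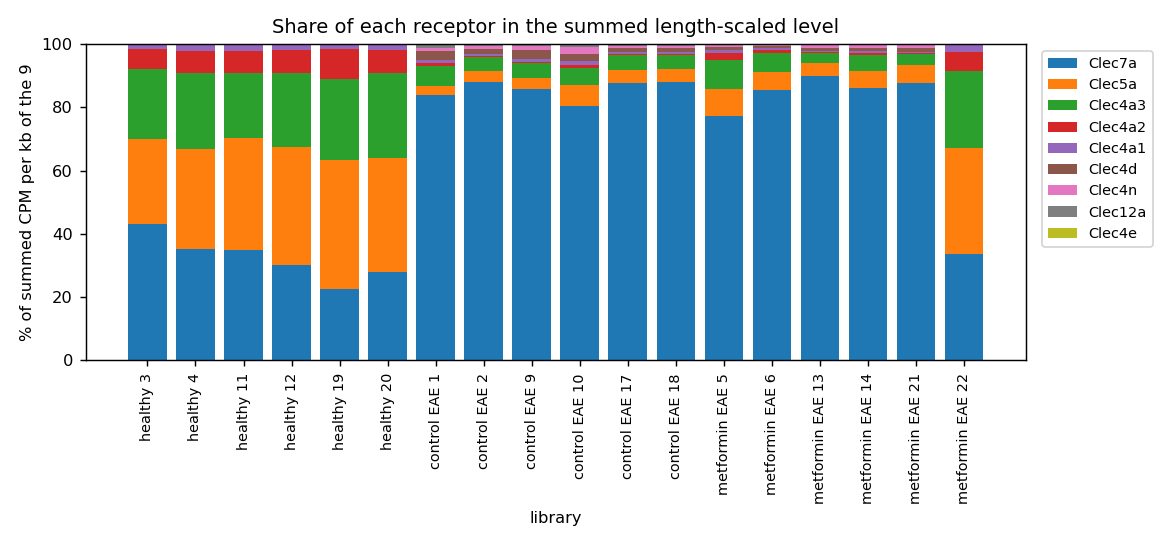
Stacked bars giving the percentage of the summed CPM per kb of the 9 receptors that each one holds, for every library. The Clec7a part fills 22.7 to 43.2% of the healthy bars, 80.3 to 88.0% of the control EAE bars and 33.8% of the bar of metformin EAE 22.

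Ratios of counts within a library do not depend on how libraries are scaled. The ratio of Clec4a2 to its family member Clec4a1 was 6.29 to 11.4 in healthy libraries, 1.10 to 2.32 in control EAE and 2.18 to 5.05 in metformin EAE libraries (4.42 at the highest without replicate 22). Healthy libraries overlapped neither EAE group. The ratio of Clec4a2 to Clec4a3 was 0.582 to 0.824, 0.229 to 0.342 and 0.285 to 0.538, again with the healthy libraries separate. The ratio of Clec5a to Clec7a, the DAP12-coupled receptor against Dectin-1, was 0.904 to 2.61 in healthy and 0.0462 to 0.122 in control EAE libraries. In metformin EAE libraries it was 0.0618 to 0.160 without replicate 22 and 1.44 in that library.

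**Figure D3:**
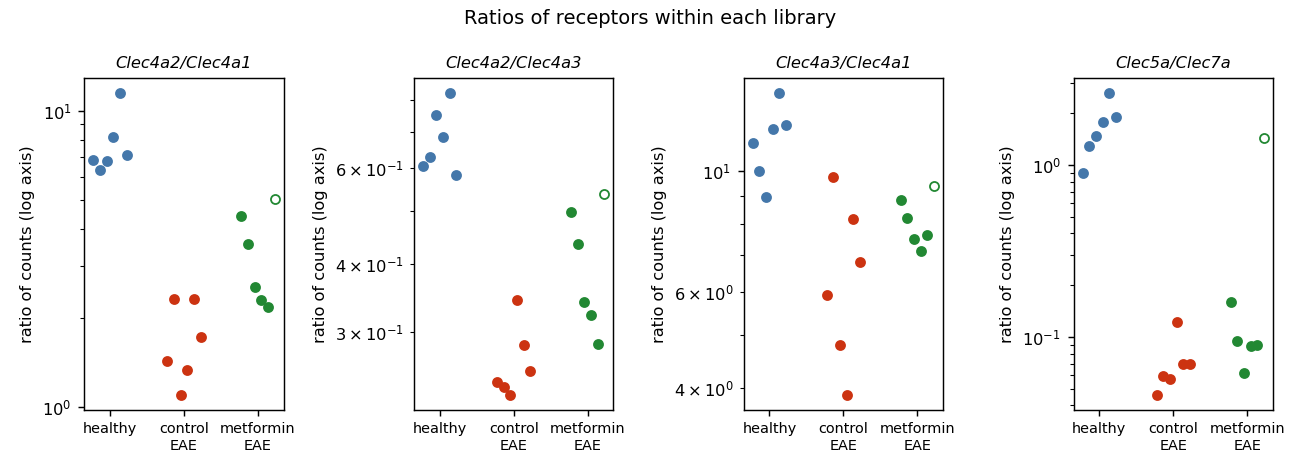
Ratios of counts of pairs of receptors within each library on log axes, by group, with metformin EAE 22 as the open circle. Clec4a2 relative to Clec4a1 separates healthy (6.29 to 11.4) from control EAE libraries (1.10 to 2.32), with metformin EAE libraries from 2.18 to 5.05.

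Between metformin EAE and control EAE libraries, 2 receptors were higher with metformin, Clec4a2 and Clec5a, the same 2 that had fallen in EAE, and none of the 9 was called lower. This stands beside 24.6% of all tested genes called, 12.5% higher and 12.1% lower (edgeR). At an unadjusted p under 0.05 there was 1 lower receptor, Clec12a, and DESeq2 gave 0 lower receptors at either threshold. The median log2 change was -0.21 over the 9 receptors and 0.0097 over all tested genes. This comparison and the one with healthy libraries share the control EAE libraries, so opposite directions in them are not independent.

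Clec4a2 was at 6.30, 10.2 and 18.8 CPM (lowest, median, highest) in metformin EAE libraries, against 5.47, 5.85 and 7.46 CPM in control EAE libraries. The groups overlapped in the range of 6.30 to 7.46 CPM, and metformin replicates 5 (18.8 CPM) and 22 (17.6 CPM) lay in the healthy range. Its log2 change was 0.90 ± 0.22 (edgeR adjusted p = 0.00632) and, without replicate 22, 0.75 ± 0.20 (0.0161). Clec5a was at 71.9, 90.8 and 128 CPM with metformin against 29.0, 59.7 and 78.4 CPM. The groups overlapped in the range of 71.9 to 78.4 CPM. Its log2 change was 0.68 ± 0.18 (0.0101), and 0.57 ± 0.17 (0.0269) without replicate 22.

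For the induced receptors the metformin group was split by replicate 22. Clec7a was at 617 to 1165 CPM in 5 metformin libraries and at 89.4 CPM in replicate 22, which lies in the healthy range. The log2 change against control EAE was -0.09 ± 0.38 (edgeR adjusted p = 0.889) with all 6 and 0.15 ± 0.19 (0.639) without that library. Neither value passed, and both lay within 1 SE of 0.

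Clec4d and Clec12a were lower in the remaining 5 metformin libraries. Clec4d ranged from 3.81 to 8.69 CPM in these 5 (median 6.39) and was at 0.0181 CPM, a single count, in replicate 22. Control EAE libraries had 7.35 to 16.8 CPM, so 2 metformin libraries overlapped them. The log2 change was -1.14 ± 0.55 (edgeR adjusted p = 0.141) with all 6 libraries and -0.87 ± 0.25 (0.0204) without replicate 22, where both the change and its SE were smaller. Clec12a was at 4.09 to 10.709 CPM in the 5 libraries and at 0.109 CPM in replicate 22, all below the lowest control EAE library at 10.737 CPM. Groups without overlap were found for 10.3% of all tested genes (4.9% higher, 5.44% lower). Its log2 change was -1.16 ± 0.54 (0.121) and, without replicate 22, -0.90 ± 0.29 (0.0352). Without that library 4 of 9 receptors were called, 2 higher and 2 lower, beside 18.3% of all tested genes (8.5% higher, 9.84% lower).

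The remaining 4 receptors did not pass in either fit. Clec4e was at 0.949 to 2.54 CPM in 5 metformin libraries and 0.109 CPM in replicate 22, with a log2 change of -0.68 ± 0.44 (edgeR adjusted p = 0.263), and -0.44 ± 0.31 (0.359) without replicate 22. Clec4n was at 1.24 to 5.59 CPM and 0.181 CPM, with -0.73 ± 0.53 (0.333) and, without replicate 22, -0.475 ± 0.38 (0.416). Both ranges overlapped the control EAE range. Clec4a1 was at 2.74 to 4.25 CPM (-0.21 ± 0.19, 0.449) and Clec4a3 at 20.5 to 37.7 CPM (0.23 ± 0.12, 0.173) over all 6 libraries. Without replicate 22 they were at -0.22 ± 0.20 (edgeR adjusted p = 0.4997) and 0.18 ± 0.13 (0.331). With library totals alone, which raised the median of all genes to 0.23, Clec4a3 passed at 0.48 ± 0.15 (0.0217).

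**Figure D4:**
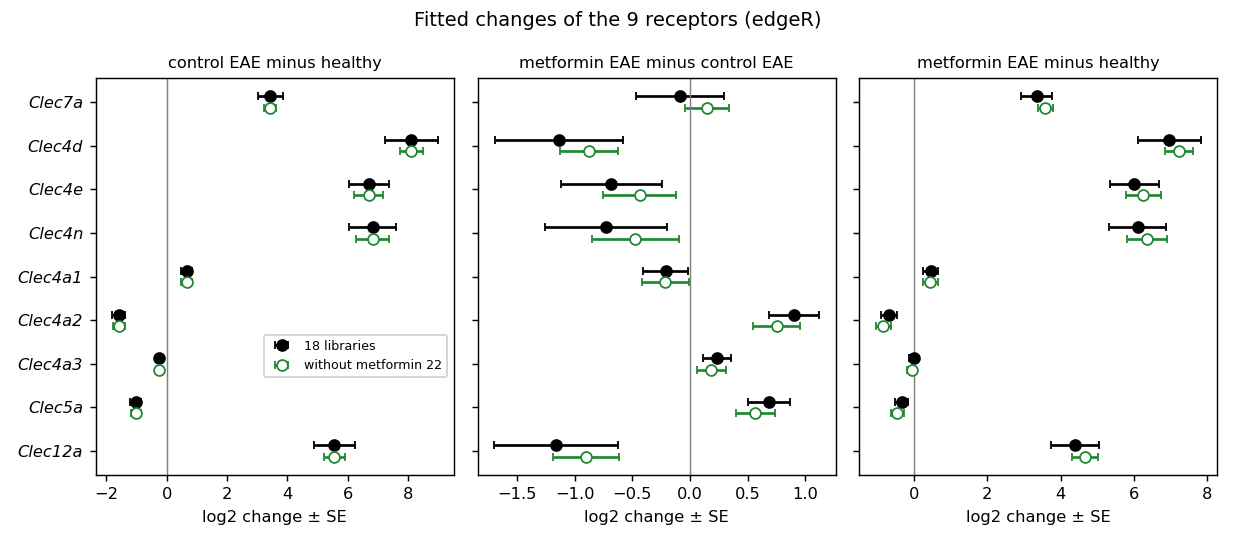
Fitted log2 changes of the 9 receptors with their standard errors in the 3 comparisons, from all 18 libraries (black) and without metformin EAE 22 (green, open); the horizontal scales differ between panels. In the middle panel Clec4a2 (0.90) and Clec5a (0.68) lie right of 0, and the bars of Clec4d and Clec12a shorten without that library.

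Microglia markers and other cells moved in this comparison too. Of 10 microglia markers 8 were higher with metformin (7 without replicate 22), with sums of 6215 to 9268 CPM in 5 libraries against 3515 to 5796 CPM in control EAE. The counts of this paragraph stand beside 12.5% of all tested genes higher and 12.1% lower (8.5% and 9.84% without replicate 22). The microglia marker Fcrls went the other way, from 805 to 580 CPM on average (log2 change -0.47 ± 0.17, edgeR adjusted p = 0.0511). DESeq2 called 9 microglia markers higher and 1 lower. Monocyte-derived cell markers had 1 of 7 lower (Plac8, also lower without replicate 22) and sums of 185 to 570 CPM in the 5 libraries. Border macrophage markers had 1 of 5 lower (Folr2, and Ms4a7 in its place without replicate 22) and sums of 22.8 to 46.7 CPM, below all control EAE libraries. Of the 2 neutrophil and 4 T cell markers tested none was called by edgeR, with 1 neutrophil marker and 0 T cell markers lower at an unadjusted p under 0.05. Of 6 dendritic cell markers 1 was higher and 2 were lower, and of 12 markers of neurons, oligodendrocytes and astrocytes 2 were higher and 1 was lower. Without replicate 22 these last counts were 1 higher and 0 lower by edgeR, those of dendritic cell markers were again 1 and 2 (of 7 tested), and no neutrophil or T cell marker was called. Their part in the values of Clec4a2, Clec5a, Clec4d and Clec12a was not tested.

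Against healthy libraries, metformin EAE libraries had 5 receptors higher and 1 lower, beside 36.6% of all tested genes called, 20.3% higher and 16.3% lower (edgeR). The 5 were Clec7a (log2 change 3.35 ± 0.42, edgeR adjusted p = 1.98e-05), Clec4d (6.97 ± 0.87), Clec4e (6.02 ± 0.67), Clec4n (6.11 ± 0.78) and Clec12a (4.40 ± 0.66, 9.53e-05). In summed counts Clec4d was 128 times its healthy level (76.1 to 235), Clec4e 71.0 times (32.3 to 195), Clec4n 69.5 times (42.6 to 122) and Clec12a 20.6 times (16.8 to 25.4). Over the 5 libraries without replicate 22 these were 156, 85.3, 84.0 and 25.02 times. Clec4a2 was the receptor that remained lower (-0.69 ± 0.21, 0.0164). Clec5a at -0.34 ± 0.18 (0.141), Clec4a1 at 0.45 ± 0.19 (0.0737) and Clec4a3 at -0.01 ± 0.12 (0.970) did not pass. Without replicate 22 Clec5a passed as well (-0.46 ± 0.17, 0.0362), which made 5 higher and 2 lower beside 46.3% of all tested genes (23.9% higher, 22.5% lower). The log2 changes without it were 3.59 ± 0.21 for Clec7a, 7.23 ± 0.39 for Clec4d, 6.26 ± 0.48 for Clec4e, 6.36 ± 0.55 for Clec4n and 4.66 ± 0.35 for Clec12a. Clec4a2 was at -0.84 ± 0.20 (edgeR adjusted p = 0.00232), Clec4a1 at 0.45 ± 0.20 (0.0789) and Clec4a3 at -0.06 ± 0.13 (0.737). Only Clec4e and Clec4n were without overlap in this comparison, 2 of 9 beside 12.9% of all tested genes (6.82% higher, 6.12% lower). Both had entered the test through the EAE libraries. For Clec7a, Clec4d, Clec12a and Clec5a, replicate 22 was the only metformin library in the healthy range. For Clec4a2 replicate 5 (18.8 CPM) lay in that range too, and for Clec4a1 and Clec4a3 other metformin libraries did.

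The signalling partners of the receptors did not move as 1 block. Of 13 tested adaptors and proximal kinases, 5 rose and 6 fell in control EAE (median log2 change -0.17). These counts and those of the lists that follow stand beside 62.4% of all tested genes called in control EAE against healthy (31.7% higher, 30.7% lower, median -0.0029) and 24.6% with metformin against control EAE (12.5% higher, 12.1% lower, and 18.3% in all without replicate 22). Fcer1g, the chain shared by Clec4d, Clec4e and Clec4n, rose from 933 to 1709 CPM on average (log2 change 0.87 ± 0.11, edgeR adjusted p = 1.27e-06). Hcst, which encodes the adaptor DAP10, rose by 1.91 ± 0.19 (2.36e-07), and the Src family kinase gene Fgr by 2.81 ± 0.38 (7.3e-06). Outside the rule for named genes, Tyrobp, the partner of Clec5a, rose by 0.89 ± 0.13 (7.36e-06) while Clec5a fell, and Syk fell by 0.54 (SE 0.13, 0.001). These were named after their values were seen, as the partners of the receptors. With metformin 3 of the 13 were higher and 4 lower, and without replicate 22 these counts were 1 and 3. Among them Fcer1g fell by 0.50 (SE 0.11, 0.00323) and Tyrobp by 0.63 (SE 0.13, 0.0028), while Lyn, another Src family kinase gene, rose by 0.32 (SE 0.067, 0.0033). Without replicate 22 they were at -0.45 ± 0.10 (edgeR adjusted p = 0.00626), -0.57 ± 0.13 (0.00545) and 0.33 ± 0.07 (0.00463).

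Downstream of the kinase, 7 of 12 genes of the CARD9 branch and NF-kB fell in control EAE and 2 rose (median log2 change -0.33). Nfkb1 fell by 0.74 (SE 0.11, edgeR adjusted p = 6.65e-06) and Rel by 0.85 (SE 0.17, 0.000223), both subunits of NF-kB, and Relb, another subunit, rose by 0.61 ± 0.14 (0.000766). Card9 itself, also named after its value was seen, fell by 0.37 (SE 0.11, 0.0048). With metformin 4 of the 12 were higher and none was lower at this threshold or at an unadjusted p under 0.05, led by the paracaspase gene Malt1 (0.66 ± 0.14, 0.00297) and Nfkb1 (0.44 ± 0.10, 0.00591). Without replicate 22 the count was 2, Malt1 (0.63 ± 0.14, 0.00579) and Nfkb1 (0.42 ± 0.11, 0.0118). Of 7 inhibitory phosphatases and brakes, 4 fell and 1 rose in EAE. The ubiquitin ligase gene Cbl fell by 1.69 (SE 0.17, 2.06e-07), Inpp5d, which encodes the lipid phosphatase SHIP1, fell by 0.64 (SE 0.11, 7.1e-05) and the adaptor gene Dok2 rose by 2.21 ± 0.34 (1.59e-05). With metformin only Cbl passed among the 7 (0.98 ± 0.16, 0.00125), also without replicate 22 (0.88 ± 0.16, 0.00192).

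Of 5 tested genes of the NFAT branch, 2 rose and 2 fell in EAE, with Nfatc2 at -1.19 ± 0.16 (edgeR adjusted p = 3.64e-06) and the early response gene Egr1 at 2.19 ± 0.34 (3.23e-05). With metformin 1 was higher, Nfatc2 (0.63 ± 0.16, 0.00819), and 1 lower, the calcineurin regulator gene Rcan1 (-0.55 ± 0.13, 0.00654), and both passed without replicate 22 (0.56 ± 0.16, 0.0203, and -0.52 ± 0.14, 0.0141). Of 14 effector genes of CARD9 signalling 7 could be tested, and Tnf was listed at 0 in every library. In EAE 5 rose and 2 fell (median log2 change 1.21). Among the 5 were Ptgs2 (4.33 ± 1.09) and Nos2 (4.69 ± 1.18), at 0.0059 and 0.0336 CPM in healthy libraries on average. Ptgs2 and Nos2 would not have entered the test on healthy libraries alone, so counts that hold them are a description. The inflammasome sensor gene Nlrp3 fell by 1.31 (SE 0.13, 1.81e-07), and the adaptor gene Pycard rose by 0.73 ± 0.15 (0.000236). The cytokine gene Il6 was at 0.868 CPM in healthy and 0.0437 CPM in control EAE libraries on average (log2 change -4.16 ± 0.69, 3.36e-05). With metformin only Nlrp3 passed among the 7 (0.66 ± 0.13, 0.00218). Without replicate 22 it was again the 1 called, of 8 tested (0.63 ± 0.13, 0.00385).

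Among other C-type lectin-like genes, 20 of 37 were tested and 12 rose and 3 fell in control EAE (median log2 change 1.29), 15 of 20 or 75.0% called beside 62.4% of all tested genes (31.7% higher, 30.7% lower). The 12 include Ly75 and Clec2i, named here for their low healthy means of 0.0895 and 0.107 CPM. Neither would have entered the test on its healthy libraries alone, so counts against healthy libraries that hold them are a description. Klrb1b, an inhibitory receptor gene of the natural killer gene complex, rose from 1.33 to 26.4 CPM on average (4.31 ± 0.48, edgeR adjusted p = 1.21e-06). Clec2d, which encodes a ligand of that receptor, rose from 10.98 to 34.7 CPM (1.66 ± 0.20, 1.27e-06), and Cd72, an inhibitory coreceptor, rose from 106 to 223 CPM (1.07 ± 0.13, 8.63e-07). With metformin against control EAE none of the 20 passed by edgeR, with 2 higher and 2 lower at an unadjusted p under 0.05, and DESeq2 called 1 higher and 1 lower. Without replicate 22 edgeR called 1, Olr1, the oxidised lipoprotein receptor (0.83 ± 0.22, 0.0153). Against healthy libraries 12 of the 20 were higher and 1 was lower in metformin EAE, beside 36.6% of all tested genes (20.3% higher, 16.3% lower). Without replicate 22 the counts were 12 and 2, beside 46.3% (23.9% higher, 22.5% lower).

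**Figure D5:**
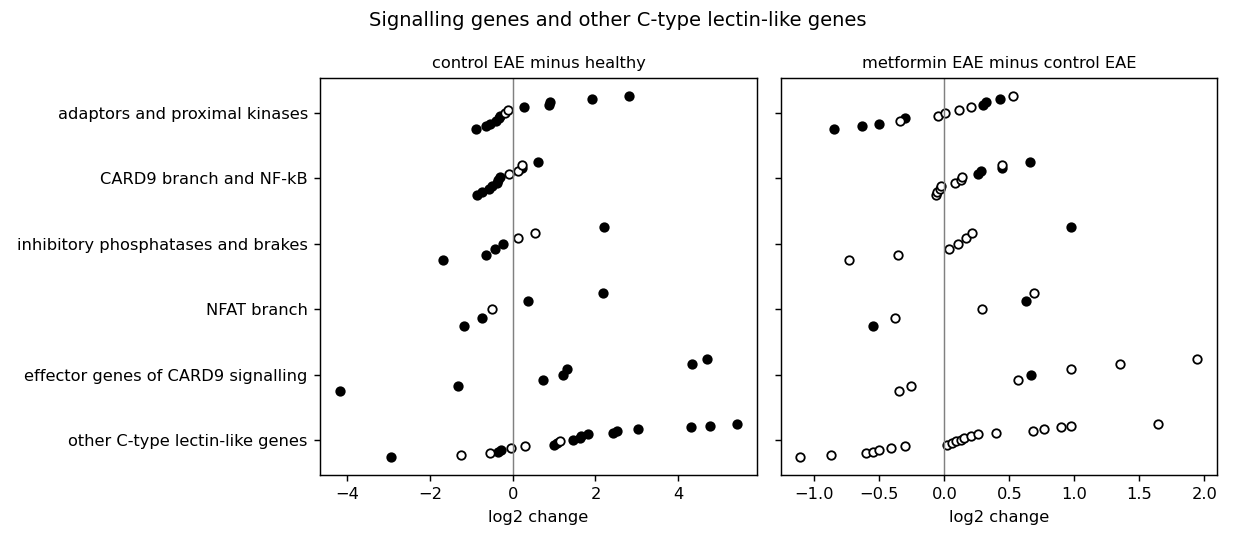
Log2 changes of the genes of 6 lists in control EAE against healthy (left) and metformin EAE against control EAE (right), 1 point per tested gene, filled where the edgeR adjusted p is under 0.05. On the left 12 of 20 other lectin-like genes are filled right of 0, and on the right none of that list is filled.

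Genes with the pattern most like each receptor were sought among 10304 genes by Pearson r of log2 CPM over the 18 libraries, as a description. The libraries share their groups, so r is also given with group means removed and replicate 22 left out. Clec7a was closest to Gm49339 (0.996, then 0.885), Gas2l3 (0.993, then 0.852) and the adhesion receptor gene Cd44 (0.991, then 0.918). Clec12a was closest to Iqgap1 (0.980, then 0.656), Vps29 (0.978, then 0.663) and Spp1, the osteopontin gene (0.977, then 0.604). Clec5a was closest to the glucocorticoid receptor gene Nr3c1 (0.981, then 0.938), Snap25 (0.979, then 0.954) and Pafah1b1 (0.976, then 0.959). Snap25 is among the markers of neurons, oligodendrocytes and astrocytes listed above, and the part of such RNA in the Clec5a values was not tested.

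Clec4a2 was closest to BC035044 (0.972, then 0.909), a gene that also lies on chromosome 6, Cep152 (0.971, then 0.871) and St3gal6 (0.969, then 0.830). Clec4d was closest to Gm26377 (0.983, then 0.226), H2afz (0.982, then 0.640) and Fabp5 (0.982, then 0.525), and Clec4n to C1ra (0.979, then 0.764), Ifitm2 (0.977, then 0.811) and Acp5 (0.977, then 0.623). Clec4e was closest to Gm15601 (0.980, then 0.645), Cryzl1 (0.980, then 0.622) and Ms4a6d (0.977, then 0.591). For Clec7a, Clec5a and Clec4a2 the values within groups stayed at or above 0.830, and for Clec4d they were at most 0.640. Clec4a1 (Gsdmd, 0.851) and Clec4a3 (Dennd1c, 0.781) had no gene above these values.

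Among the receptors themselves, with group means removed and replicate 22 left out, Clec4d and Clec4n went together (r = 0.822 over 17 libraries), as did Clec4a2 and Clec4a3 (0.750). Clec7a and Clec12a were at 0.544 and Clec7a and Clec4a2 at -0.652. Clec4d and its genomic neighbour Clec4e, 0.007 Mb away, were at 0.0255. Values for Clec4d, Clec4e and Clec4n include healthy libraries with 0 to 10 counts of each. They therefore cannot say whether these genes go together where they are well read. Among the 5 metformin libraries, replicate 21 was highest and replicate 6 lowest in both Clec4d and Clec4e. In control EAE the highest library was replicate 9 for Clec4d and replicate 10 for Clec4e. Counts of Clec4e are the lowest of the 3.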

How the data were processed

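RNA of spinal cord microglia was measured in 18 libraries, 6 in each of 3 groups. Per the labels' protocols, RNA came from a column kit and went into KAPA Stranded RNA-Seq libraries after enrichment of mRNA, with PCR. Per the submitters' processing notes, bcl2fastq 2.17, FastQC and Trimmomatic were used and the build was mm10. Not given in the sources used here are the aligner, the counting tool, its use of strand and its annotation. The deposited table holds whole-number counts per Ensembl gene, not normalized, as its values show. Reads carry no molecular identifiers, so intervals on counts cover counting error only.

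Symbols, positions and merged exon lengths came from GENCODE M21. Low genes were removed by filterByExpr with a count minimum of 10 and a total of 15, and the rest were fitted for all 18 libraries together in edgeR 4.0.16 (R 4.3.3) with TMM factors, group means and a robust quasi-likelihood F test. P-values were adjusted by Benjamini-Hochberg over 16740 genes, at a threshold of 0.05. The biological coefficient of variation was 0.245. A standard error is the log2 change divided by the square root of F. Alternatives were DESeq2 1.42.0, RLE factors, library totals alone, no filter, fits of 2 groups, the runs of title numbers as a term, and each library left out. The procedure was also run on simulated counts with known changes in well-read genes. The changed genes included none near 0 in healthy libraries, so the simulation does not bear on the calls of Clec4d, Clec4e, Clec4n and Clec12a. No 2 libraries were alike within sampling noise (lowest chi-square per degree of freedom 15.5). Descriptions were computed with numpy 2.4.6, pandas 2.3.3 and scipy 1.17.1 in Python 3.11.15, and figures were drawn with matplotlib 3.10.9.

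The receptors and the gene lists were chosen with earlier results of these data known. Named genes were the 9 receptors and, of each signalling or lectin list, the 3 genes with the smallest p in a comparison, of which those with most bearing on the receptors are given, and for likeness the 3 genes with the highest r among those with a mean of at least 5 CPM (log2 CPM with prior count 1). Genes named otherwise are marked as such or are markers of other cells and neighbours of the receptors.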

Additional observations from a re-analysis of the deposited data

Results flagged for a closer look

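Clec4n in healthy replicate 12 stood apart from the other healthy libraries, at 0.172 CPM (10 counts) against 0 to 0.0354 CPM. Its gap to the next library made up 0.795 of the range of the group, above the 95% critical value of Dixon for 6 libraries. Among 27 receptor and group combinations examined this was the only one to stand out. Chance gives about 1 in 20, so 1 among 27 is near what chance alone would give. The value is still below the lowest control EAE library, at 3.88 CPM.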

How the results depend on the processing

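In control EAE against healthy libraries the counts of receptors (6 higher, 2 lower) were the same under DESeq2, RLE factors, no filter, the runs of title numbers as a term and each library left out. The exceptions were library totals alone (5 higher, 3 lower, as Clec4a1 lost and Clec4a3 gained its call) and the fit of the 2 groups (3 lower, with Clec4a3 at -0.24, edgeR adjusted p = 0.0393). Leaving out healthy replicate 12 moved the log2 change of Clec4n from 6.84 to 7.91.

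With library totals alone the counts over all genes shifted, to 2604 higher and 8649 lower in control EAE against healthy, 4712 and 616 in metformin against control EAE, and 1927 and 4786 in metformin EAE against healthy, where TMM scaling gave 5314 and 5138, 2087 and 2024, and 3405 and 2730. This scaling moved the median gene to -0.42, 0.23 and -0.20. In metformin against control EAE it turned 2 values that had not passed, Clec7a to 0.082 and Clec4a1 to 0.013. The fit of the 2 groups called 2703 genes there, 1292 of them higher, against 4111 and 2087, and the cause was not tested.

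Leaving out 1 library at a time in metformin against control EAE, the number of receptors called ranged from 2 to 4 and the number lower from 0 to 2. The upper values came without metformin EAE 22, and the log2 change of Clec7a ranged from -0.24 to 0.15. In metformin EAE against healthy the number lower ranged from 1 to 2, and Clec4a3, which did not pass, ranged from -0.11 to 0.068 and was at 0.0029 with no filter. There the fit of the 2 groups called 4 receptors higher and 2 lower: Clec4d and Clec4e missed its filter, while Clec4a1 (0.44, edgeR adjusted p = 0.0379) and Clec5a (-0.35, 0.0359) passed. Clec4a1 also passed without control EAE 10 (0.45, 0.0467). No paired analysis was possible because the groups share no replicate numbers. The runs of title numbers, whose meaning the labels do not give, entered as a term instead, and the counts of receptors called stayed at 8, 2 and 6 in the 3 comparisons.

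Depth limits the healthy values of Clec4d, Clec4e and Clec4n, which rest on 6 to 16 counts in all. Strand use in counting is not given, and Clec4a2 shares sequence with other genes.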
